A study of Mus musculus with 10 samples.

Results

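The genes described here encode the enzymes, carriers and regulators of fatty acid oxidation. They are the 33 listed symbols that matched an Ensembl identifier of the deposited table, of 45318 identifiers in all. Of these, 32 passed the filter on low values and were tested, and 1, Ppara, was listed at 0 in every library. RNA of cultured bone marrow derived macrophages (BMDM) from C57BL/6 mice was sequenced in 10 libraries, 2 for each of 5 groups. The groups were Tlr4 -/- (KO) cells pre-treated in a medium containing Poly(I:C), which mimics viral double-stranded RNA, KO cells and WT cells after 6 h in a medium with 5% FBS (fetal bovine serum) and 2% BSA (bovine serum albumin), here called the control medium, and KO cells and WT cells left untreated. TLR4 is the receptor for bacterial lipopolysaccharide. The labels give no duration and no serum or albumin content for the Poly(I:C) medium, no medium for untreated cells, and no age or sex of the mice. Poly(I:C) was not analysed here in WT cells. The labels do not tell whether the 2 libraries of a group stem from different cultures or mice, and p-values therefore cover the spread between these libraries alone, which may be technical.

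Fatty acid oxidation shortens fatty acyl chains and passes the electrons to the respiratory chain. Long chains enter mitochondria as acylcarnitines through the carnitine shuttle, and each round of the cycle then runs dehydrogenation, hydration, a further oxidation and thiolytic cleavage. Peroxisomes shorten very long and branched chains by a parallel route, thioesterases release free fatty acids from CoA, and the PPAR nuclear receptors with PGC-1 coactivators are known to drive many of the genes. In macrophages, inflammatory activation is known for a turn towards glycolysis and alternative activation for a reliance on oxidation.

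Values are given as CPM, meaning deposited units after each library's scaled total was set to 1000000, and differences are log2 differences of CPM + 0.1. A gene was called, and is said to have risen or fallen, where limma's Benjamini-Hochberg adjusted p over all 13171 tested genes was under 0.05. The deposited totals ran from 25.2 to 51.7 M units, and the 2 libraries of a group correlated at 0.992 to 0.994 across genes on the log2 scale. Tlr4 RNA was present in all groups and did not pass the test between untreated KO and untreated WT cells (log2 −0.53, SE 0.14, adjusted p = 0.351). A gene total cannot tell deleted from remaining exons, so genotypes are given as labelled. All 10 macrophage markers were tested and summed to 28582 to 35886 CPM in the libraries. The 7 adipocyte markers summed to at most 0.0653 CPM, with Plin1 and Cfd at 0 throughout, and the 5 T and NK cell markers to at most 0.198 CPM, with Cd3e, Cd8a and Ncr1 at 0. The 5 dendritic cell markers summed to at most 0.999 CPM. In bulk RNA, fewer cells expressing a gene and less RNA per cell cannot be told apart.

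Most fatty acid oxidation genes were lower in WT cells after the control medium and in KO cells after Poly(I:C) than in untreated cells of the same genotype, and fewer were lower in KO cells after the control medium. Summed over the 33 genes, the level was 1132 and 1085 CPM in KO Poly(I:C), 1149 and 1133 CPM in KO control, 1066 and 1064 CPM in WT control, 1433 and 1430 CPM in untreated KO and 1461 and 1428 CPM in untreated WT libraries. Each count of falls in this paragraph includes Pdk4, which passed the filter only through the untreated groups. A filter on a mean of at least 1 CPM drops it. The falls were then 24 in KO Poly(I:C), 24 in WT control and 13 in KO control cells. In KO Poly(I:C) cells against untreated KO cells, 25 of 32 tested genes fell, 3 rose and 4 did not pass, where 36.9% of all tested genes fell and 35% rose. In WT control cells against untreated WT cells, 25 fell, 2 rose and 5 did not pass, where 33.1% of all genes fell and 32.8% rose. In KO control cells against untreated KO cells, 14 fell, 0 rose and 18 did not pass, where 9.06% of all genes fell and 10.9% rose. Of these 32, 17 had an unadjusted limma p under 0.05, against 4368 of all 13171 genes. Fewer genes were called, among members and among all genes, without KO control replicate 2 or either of the untreated KO replicates. The members' median log2 difference was −0.27 without KO control replicate 2, and −0.28 and −0.30 without untreated KO replicates 1 and 2.

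The median log2 difference of the 32 genes was −0.82 for KO Poly(I:C), −0.83 for WT control and −0.26 for KO control cells, each against untreated cells of its genotype, while the median over all tested genes lay at −0.02, −0.01 and 0.0040. The same 25 genes fell in KO Poly(I:C) and in WT control cells, 2 comparisons that share no library. The overlap was also large over all tested genes, where 3951 fell in both. That is 81.4% of those that fell with Poly(I:C) and 90.7% of those that fell in WT control cells. Scaling by library totals alone moved the median of all genes to −0.77 in KO Poly(I:C) and −0.52 in WT control cells. The members' median was then −1.59 and −1.35, with 30 genes lower and 1 higher in each. Of all 13171 tested genes, 8703 were then lower and 2218 higher in KO Poly(I:C), and 7689 lower and 2267 higher in WT control cells. With the values as deposited, the median of all genes was 0.15 in KO Poly(I:C) and 0.14 in WT control cells. The members then split into 23 lower and 5 higher with Poly(I:C) and 22 lower and 2 higher in WT control cells. Of all genes, 3998 were then lower and 5439 higher with Poly(I:C), and 3426 lower and 5158 higher in WT control cells.

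Markers of macrophages, neutrophils and B cells moved in the comparisons of KO Poly(I:C) and WT control with untreated cells. Of all genes, 35% and 32.8% rose and 36.9% and 33.1% fell in these. Of 10 macrophage markers, 4 rose and 1 fell in KO Poly(I:C) and 5 rose and 2 fell in WT control cells. They summed to 35087 to 35886 CPM in KO Poly(I:C), 30080 to 30176 in KO control and 34147 to 35272 in WT control libraries. Untreated KO libraries had 30869 to 32229 CPM and untreated WT libraries 28582 to 30078 CPM. Of 9 tested neutrophil markers, 5 rose and 1 fell in KO Poly(I:C) and 5 rose and 0 fell in WT control cells against untreated cells, and the list of 10, with no marker at 0 throughout, summed to 256 to 258 CPM in KO Poly(I:C), 135 to 151 CPM in KO control, 260 to 298 CPM in WT control, 209 to 212 CPM in untreated KO and 221 to 225 CPM in untreated WT libraries. Of 4 B cell markers only Cd79b was tested, and it fell in both comparisons. The 4 summed to 7.69 to 8.66 CPM in KO Poly(I:C), 37.0 to 42.5 CPM in KO control, 10.4 to 11.3 CPM in WT control, 47.3 to 50.5 CPM in untreated KO and 46.1 to 52.8 CPM in untreated WT libraries. The 7 stromal markers, of which 2 of 5 tested rose in each of these comparisons, summed to 7.91 to 9.87 CPM in KO Poly(I:C), 4.35 to 5.70 CPM in KO control, 12.9 to 16.3 CPM in WT control, 3.76 to 3.95 CPM in untreated KO and 3.67 to 6.33 CPM in untreated WT libraries. Their part in the results was not tested.

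**Figure D1:**
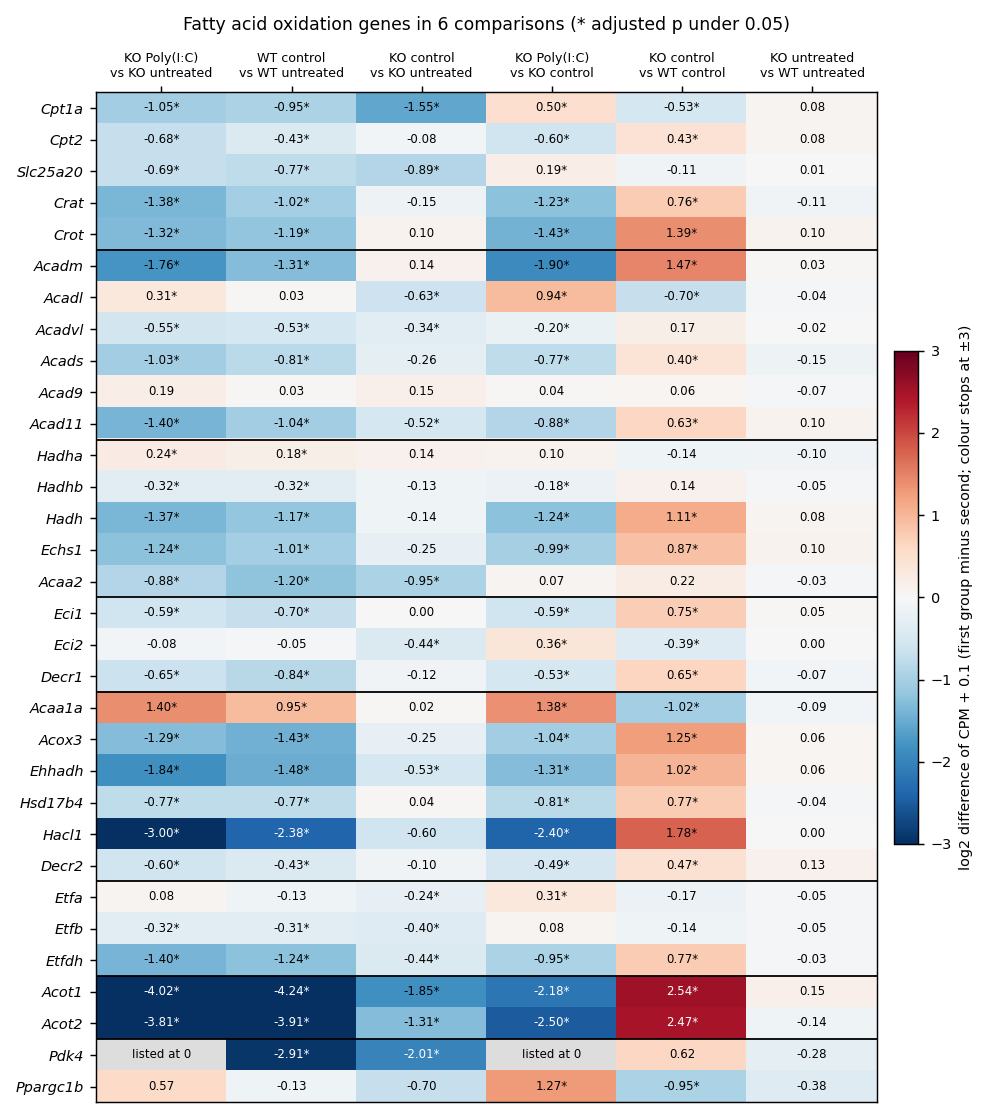
Log2 differences of CPM + 0.1 for the 32 tested genes (rows, grouped by step from the carnitine shuttle at the top to the regulators at the bottom) in 6 comparisons (columns, first group minus second). An asterisk marks an adjusted p under 0.05, and grey cells are comparisons with a group in which the gene was listed at 0. The first and second columns hold mostly negative values, with Acaa1a (1.40 and 0.95) and Hadha (0.24 and 0.18, but −0.53 and −0.35 with library totals alone) as called exceptions in both.

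All 5 genes of the carnitine shuttle fell in KO Poly(I:C) and in WT control cells, and 2 of them, Cpt1a and Slc25a20, also fell in KO control cells. Cpt1a (ENSMUSG00000024900, chromosome 19, 3322334 to 3385733, plus strand, GRCm38) makes long-chain acylcarnitines at the outer mitochondrial membrane, the rate-controlling step of entry. It had 83.1 and 95.9 CPM in KO Poly(I:C), 60.6 and 66.1 in KO control, 85.5 and 97.2 in WT control, 177 and 194 in untreated KO and 179.7 and 172 in untreated WT libraries. All 6 libraries of cells given either medium, called pre-treated from here on, lay below all 4 untreated ones, and the KO control libraries were the lowest. The differences from untreated cells were −1.05 (SE 0.10, adjusted p = 4.57e-06) for KO Poly(I:C), −0.95 (SE 0.10, adjusted p = 1.44e-05) for WT control and −1.55 (SE 0.10, adjusted p = 2.21e-05) for KO control cells. Slc25a20, the carnitine-acylcarnitine translocase of the inner membrane, had 24.5 and 23.7 CPM in KO Poly(I:C), 20.3 and 21.9 in KO control, 23.0 and 22.5 in WT control, 38.5 and 39.7 in untreated KO and 38.8 and 38.7 in untreated WT libraries. Its 6 pre-treated libraries again lay below all untreated ones, and the 3 pre-treated groups stood close together. It was called lower in each, by −0.69 in KO Poly(I:C), −0.89 in KO control and −0.77 in WT control cells.

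Cpt2, which turns acylcarnitines back into acyl-CoA inside mitochondria, had 10.7 and 11.3 CPM in KO Poly(I:C), 15.6 and 17.9 in KO control, 13.0 and 11.8 in WT control, 17.8 and 17.5 in untreated KO and 17.9 and 15.5 in untreated WT libraries. The KO control libraries overlapped the untreated KO ones, while KO Poly(I:C) and WT control libraries lay below their untreated cells. The differences were −0.68 (SE 0.11, adjusted p = 0.000364) for KO Poly(I:C) and −0.43 (SE 0.11, adjusted p = 0.00774) for WT control cells, and −0.08 without passing for KO control cells. The WT control call of Cpt2 was lost in 3 of 20 alternative settings, which changed the scaling, filter, fit or table or left out 1 library. Crot, which moves medium chains from peroxisomes onto carnitine, had 13.7 and 14.7 CPM in KO Poly(I:C), 37.8 and 39.0 in KO control, 14.1 and 15.0 in WT control, 35.6 and 35.9 in untreated KO and 35.1 and 31.7 in untreated WT libraries. Its KO control libraries were the highest of all, above every untreated library, while KO Poly(I:C) and WT control libraries stood well below all others (−1.32 and −1.19). Crat, which acts on short chains, fell by similar amounts in KO Poly(I:C) and WT control cells (−1.38 and −1.02) and averaged 55.3 ± 3.07 CPM in KO control against 61.3 ± 4.35 CPM in untreated KO cells (SD, n = 2 each), without passing. Dolpp1 and Gm16323, on the other strand, overlap 8.72% of the Crat exonic length, and Gm16323 was at 0 throughout. Dolpp1, at 6.73 to 19.2 CPM, also fell in KO Poly(I:C) and WT control cells (−1.28 and −0.90). In KO control cells Dolpp1 did not pass (−0.11). The part of Dolpp1 in the Crat values was not tested.

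The start region of Cpt1a is shown because it was the member that fell most in KO control cells among those above 10 CPM in untreated cells. For 27 of the 33 genes a window of 250 bases before and 50 bases after the RefSeq (GRCm38.p6) start was searched. Crat, Acad9, Acaa2, Decr1, Hsd17b4 and Ppargc1b were not searched, which does not mean that RefSeq lacks a start for them. Capitals mark AGGTCA, the nuclear receptor motif, CCAAT, the CCAAT box, and GGGCGG, the GC box, on either strand.
Cpt1a (chr19:3323051-3323350, plus strand): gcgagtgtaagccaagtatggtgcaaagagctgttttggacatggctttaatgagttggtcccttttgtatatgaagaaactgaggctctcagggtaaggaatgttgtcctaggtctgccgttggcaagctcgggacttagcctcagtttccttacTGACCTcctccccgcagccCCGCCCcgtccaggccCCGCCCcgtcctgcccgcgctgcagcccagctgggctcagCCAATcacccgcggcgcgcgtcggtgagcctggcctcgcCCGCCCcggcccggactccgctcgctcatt
The motif AGGTCA stood in 4 of the 27 windows (14.8%), against 16.3% of 32851 windows of all genes. CCAAT stood in 14 (51.9%) against 37.4% of all windows, and GGGCGG in 22 (81.5%) against 35.7%. The windows of all genes were not limited to genes tested here, and the share among tested genes was not computed. Acaa2, Hsd17b4 and Ppargc1b lie on the same chromosome, from which no member window was taken. The windows of all genes may not have been limited in this way, so these shares may not be like for like. The element of PPAR with RXR, searched as AGGTCA repeated after 1 free base and so overlapping the single motif, was in 0 of the 27 windows and 0.0396% of all windows. The core of the interferon-stimulated response element, searched as GAAA repeated after 2 free bases, was in 0 of 27 and 3.44% of all. These are matches of letters on both strands within short windows, not binding sites.

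Of the 6 acyl-CoA dehydrogenases, which start each round of the cycle and differ in the chain length they act on, 4 fell in KO Poly(I:C) and in WT control cells, and the medium- and long-chain enzymes did not move together. Acadm (ENSMUSG00000062908, chromosome 3, 153922357 to 153944632, minus strand), the medium-chain enzyme, had 11.9 and 11.3 CPM in KO Poly(I:C), 44.4 and 42.8 in KO control, 16.1 and 15.2 in WT control, 39.3 and 39.9 in untreated KO and 40.1 and 37.6 in untreated WT libraries. KO Poly(I:C) and WT control libraries lay far below the untreated ones, and KO control libraries lay above all of them. The differences were −1.76 (SE 0.08, adjusted p = 3.09e-08) for KO Poly(I:C) and −1.31 (SE 0.08, adjusted p = 4.29e-07) for WT control cells, and 0.14 without passing for KO control cells. Acadl (ENSMUSG00000026003, chromosome 1, 66830839 to 66863277, minus strand), the long-chain enzyme, had 122 and 114 CPM in KO Poly(I:C), 64.6 and 58.0 in KO control, 99.6 and 99.3 in WT control, 92.3 and 97.6 in untreated KO and 100.4 and 94.9 in untreated WT libraries. Its KO control libraries were the lowest and its KO Poly(I:C) libraries the highest, with WT control and all untreated libraries between them and overlapping. Acadl fell by 0.63 in KO control cells (SE 0.08, adjusted p = 0.000575) and was higher by 0.31 (SE 0.08, adjusted p = 0.00449) in KO Poly(I:C) than in untreated KO cells, but this difference was −0.46 with scaling by library totals alone. In WT control cells its difference was 0.03 and did not pass (−0.50 and called with library totals alone).

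The start regions of Acadm and Acadl are shown because the ratio of these enzymes of adjoining chain lengths in every pre-treated library lay outside that of untreated libraries. Capitals mark the same motifs as in Cpt1a.
Acadm (chr3:153944594-153944893, minus strand): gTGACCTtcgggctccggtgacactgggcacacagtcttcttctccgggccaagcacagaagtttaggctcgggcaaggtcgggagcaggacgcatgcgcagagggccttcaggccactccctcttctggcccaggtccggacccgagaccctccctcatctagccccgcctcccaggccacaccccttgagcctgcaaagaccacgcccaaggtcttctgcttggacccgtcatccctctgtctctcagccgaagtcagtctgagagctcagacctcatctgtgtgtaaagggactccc
Acadl (chr1:66863260-66863559, minus strand): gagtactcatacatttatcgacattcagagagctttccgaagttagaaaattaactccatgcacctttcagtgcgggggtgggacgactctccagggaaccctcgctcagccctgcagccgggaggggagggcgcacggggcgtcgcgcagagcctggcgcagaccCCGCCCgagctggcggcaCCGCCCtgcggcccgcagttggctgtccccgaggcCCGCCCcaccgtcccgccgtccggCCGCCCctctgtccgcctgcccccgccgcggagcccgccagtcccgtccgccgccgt
The Acadm window held 1 AGGTCA and no GGGCGG or CCAAT, and the Acadl window 4 GGGCGG and none of the others.

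Acadvl, the very-long-chain enzyme of the inner membrane, had 45.3 and 41.8 CPM in KO Poly(I:C), 51.6 and 48.8 in KO control, 45.8 and 43.4 in WT control, 63.6 and 63.6 in untreated KO and 63.2 and 65.8 in untreated WT libraries. The 6 pre-treated libraries lay below the 4 untreated ones, and the 3 pre-treated groups stood close together. It fell by 0.55 in KO Poly(I:C), by 0.53 in WT control and by 0.34 in KO control cells, the KO control call being lost in 3 of 20 settings. The Acadvl exons overlap those of Dvl2 on the other strand over 42.9% of their length, and Dvl2 stood at 7.49 to 11.9 CPM. Dvl2 fell in KO Poly(I:C) cells (−0.40, limma adjusted p = 0.0395). It did not pass in WT control (−0.30) or KO control cells (−0.05), each against untreated cells. The part of Dvl2 in the Acadvl values was not tested. Acads, the short-chain enzyme, and Acad11, a family member linked to long-chain substrates, fell in KO Poly(I:C) (−1.03 and −1.40) and in WT control cells (−0.81 and −1.04). In KO control cells Acad11 fell by 0.52, a call lost in 4 of 20 settings, and Acads differed by −0.26 without passing. Acad9, which also helps to assemble respiratory complex I, passed in none of the 7 comparisons and averaged 27.2 ± 1.43 CPM in KO Poly(I:C), 26.5 ± 0.709 in KO control, 25.5 ± 1.87 in WT control, 23.9 ± 1.71 in untreated KO and 25.1 ± 3.43 CPM in untreated WT cells (SD, n = 2 each). With scaling by library totals alone Acad9 was called lower in KO Poly(I:C) than in untreated KO cells (−0.58) and in WT control than in untreated WT cells (−0.50).

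The 2 subunits of the mitochondrial trifunctional protein, which carries out the later steps for long chains, moved slightly apart. Hadha, the alpha subunit with hydratase and dehydrogenase activity, had 109 and 112 CPM in KO Poly(I:C), 101 and 106 in KO control, 116 and 112 in WT control, 92.5 and 95.5 in untreated KO and 104 and 97.6 in untreated WT libraries. Its KO Poly(I:C) and WT control libraries lay above the untreated ones. Hadhb, the thiolase subunit, had 54.6 and 54.1 CPM in KO Poly(I:C), 62.4 and 61.2 in KO control, 59.5 and 53.1 in WT control, 67.0 and 68.8 in untreated KO and 70.6 and 70.1 in untreated WT libraries, with KO Poly(I:C) and WT control libraries below the untreated ones. Hadha rose by 0.24 in KO Poly(I:C) (adjusted p = 0.00951) and by 0.18 in WT control cells (adjusted p = 0.039), but its sign turned with library totals alone (−0.53 and −0.35), and the WT control call was lost in 9 of 20 settings. Hadhb fell by 0.32 in each (adjusted p = 0.00288 and 0.00316), and with the values as deposited its differences were −0.14 in KO Poly(I:C) and −0.16 in WT control cells and not called. Exactly the same scaling applies to both genes within a library, so their ratio is free of it: Hadha over Hadhb was 2.00 and 2.08 in KO Poly(I:C), 1.62 and 1.73 in KO control, 1.95 and 2.11 in WT control, 1.38 and 1.39 in untreated KO and 1.47 and 1.39 in untreated WT libraries. Every pre-treated library had a higher ratio than every untreated one.

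The pair is encoded head to head on chromosome 5 with start sites 273 bases apart, so that 228 bases of the 2 start windows are the same DNA read on opposite strands. They are shown for that reason, with the shared bases in capitals.
Hadha (chr5:30154931-30155230, minus strand): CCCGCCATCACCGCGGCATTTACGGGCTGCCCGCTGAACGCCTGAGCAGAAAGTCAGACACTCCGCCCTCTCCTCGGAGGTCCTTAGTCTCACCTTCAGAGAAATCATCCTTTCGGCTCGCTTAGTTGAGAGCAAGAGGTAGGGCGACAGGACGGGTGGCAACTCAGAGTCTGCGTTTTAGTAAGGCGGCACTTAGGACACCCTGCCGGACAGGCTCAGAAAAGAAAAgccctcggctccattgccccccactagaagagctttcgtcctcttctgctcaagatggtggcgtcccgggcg
Hadhb (chr5:30155003-30155302, plus strand): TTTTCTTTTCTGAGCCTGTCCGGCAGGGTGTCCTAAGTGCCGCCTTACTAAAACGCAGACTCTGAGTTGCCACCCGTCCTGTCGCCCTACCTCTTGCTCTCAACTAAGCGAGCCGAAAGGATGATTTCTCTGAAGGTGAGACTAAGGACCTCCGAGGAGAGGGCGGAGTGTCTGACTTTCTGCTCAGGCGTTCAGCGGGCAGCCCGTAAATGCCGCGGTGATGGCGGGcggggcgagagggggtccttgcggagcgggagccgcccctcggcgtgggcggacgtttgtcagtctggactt
Of the exonic 50-base words of Hadhb, 19.7% also occur in other genes, 18.1% in Gm13910, so that reads from there could be counted for either.

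Hadh, the short-chain hydroxyacyl-CoA dehydrogenase, and Echs1, the short-chain hydratase, fell together in KO Poly(I:C) (−1.37 and −1.24) and in WT control cells (−1.17 and −1.01). In KO control cells they differed by −0.14 and −0.25 and did not pass. Acaa2, the mitochondrial thiolase for medium and long chains, had 16.4 and 14.3 CPM in KO Poly(I:C), 15.2 and 13.9 in KO control, 11.9 and 13.0 in WT control, 29.5 and 26.9 in untreated KO and 27.5 and 30.1 in untreated WT libraries. All pre-treated libraries lay below all untreated ones, and its differences were −0.88 in KO Poly(I:C), −1.204 in WT control and −0.95 in KO control cells, called in each. Apart from Pdk4, whose low values are given with the regulators, the largest called falls in KO control cells were those of Acot1 (−1.85), Cpt1a (−1.55), Acot2 (−1.31), Acaa2 (−0.95) and Slc25a20 (−0.89).

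Unsaturated chains need auxiliary enzymes. Eci1, a mitochondrial enoyl-CoA isomerase, and Decr1, the mitochondrial dienoyl-CoA reductase, fell in KO Poly(I:C) (−0.59 and −0.65) and WT control cells (−0.70 and −0.84) and did not pass in KO control cells (0.0020 and −0.12). Eci2, a further enoyl-CoA isomerase found in mitochondria and peroxisomes, did the reverse: it fell by 0.44 in KO control cells (adjusted p = 0.00355) and did not pass in KO Poly(I:C) (−0.08) or WT control cells (−0.05). Its means were 41.9 ± 1.10 CPM in KO Poly(I:C), 32.5 ± 0.393 CPM in KO control and 42.5 ± 2.70 CPM in WT control, against 44.2 ± 0.430 CPM in untreated KO and 44.1 ± 1.63 CPM in untreated WT cells (SD, n = 2 each).

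Of the 6 peroxisomal genes, 5 fell and 1, Acaa1a, rose in both KO Poly(I:C) and WT control cells. Hacl1, a lyase of alpha-oxidation, had 0.881 and 0.589 CPM in KO Poly(I:C), 4.22 and 4.24 in KO control, 1.06 and 1.27 in WT control, 6.07 and 6.90 in untreated KO and 6.24 and 6.69 in untreated WT libraries. KO Poly(I:C) and WT control libraries were far below the rest, and KO control libraries lay between them and the untreated ones without overlap. It fell by 2.999 in KO Poly(I:C) and by 2.38 in WT control cells, and its KO control difference of −0.60 did not pass (adjusted p = 0.0601). On the same strand Gm49387 overlaps 31.1% of the Hacl1 exonic length and shares 27.4% of its 50-base words. The part of Gm49387 in the Hacl1 values was not tested. Ehhadh, the L-bifunctional enzyme, had 1.41 and 1.60 CPM in KO Poly(I:C), 3.63 and 4.14 in KO control, 1.78 and 1.95 in WT control, 5.29 and 5.99 in untreated KO and 5.46 and 5.31 in untreated WT libraries. The order of the groups was the same as for Hacl1, with called differences of −1.84 in KO Poly(I:C), −1.48 in WT control and −0.53 in KO control cells, the KO control call being lost in 11 of 20 settings. Hsd17b4, the D-bifunctional enzyme for branched and very long chains, had 63.4 and 57.0 CPM in KO Poly(I:C), 109 and 103 in KO control, 62.7 and 61.1 in WT control, 103 and 103 in untreated KO and 114 and 98.0 in untreated WT libraries. Here KO control and untreated libraries shared 1 range, with KO Poly(I:C) and WT control libraries below it (−0.77 each).

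Acox3, an oxidase for branched chains, and Decr2, the peroxisomal dienoyl-CoA reductase, fell in KO Poly(I:C) (−1.29 and −0.60) and WT control cells (−1.43 and −0.43) and did not pass in KO control cells (−0.25 and −0.10). Acaa1a (ENSMUSG00000036138, chromosome 9, 119339676 to 119350299, plus strand), the peroxisomal thiolase, had 227 and 198 CPM in KO Poly(I:C), 82.5 and 80.9 in KO control, 159 and 173 in WT control, 87.1 and 74.0 in untreated KO and 80.2 and 91.5 in untreated WT libraries. KO control and untreated libraries overlapped at 74.0 to 91.5 CPM, and all KO Poly(I:C) and WT control libraries lay above them. It rose by 1.40 (SE 0.10, adjusted p = 8.80e-07) in KO Poly(I:C) and by 0.95 (SE 0.10, adjusted p = 2.14e-05) in WT control cells. Of the exonic length of Acaa1a, 6.57% is overlapped on the opposite strand by Myd88, an adaptor of Toll-like receptors. Myd88 had 463 and 482 CPM in KO Poly(I:C), 99.2 and 97.5 in KO control, 293 and 336 in WT control, 66.7 and 62.5 in untreated KO and 69.7 and 72.8 in untreated WT libraries. It was called higher than in untreated cells in KO Poly(I:C) and WT control cells, where Acaa1a rose, and also in KO control cells (log2 0.61, adjusted p = 0.000786), where Acaa1a was not called. The sources used here do not give how the authors' counting used strand. Its part in the result was not tested. The related gene Acaa1b, which shares 12.4% of the 50-base words of Acaa1a, stood at 0.112 CPM or less in every library.

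The electron transfer flavoprotein takes electrons from the dehydrogenases, and Etfdh passes them to ubiquinone. Etfdh had 14.4 and 14.3 CPM in KO Poly(I:C), 27.7 and 28.0 in KO control, 16.1 and 16.4 in WT control, 37.1 and 38.7 in untreated KO and 41.2 and 36.1 in untreated WT libraries. The KO Poly(I:C) and WT control libraries were lowest, the KO control libraries stood between, and the untreated libraries were highest, with no overlap between these 3 levels. The differences of Etfdh were −1.40 (SE 0.09, adjusted p = 2.75e-07) in KO Poly(I:C), −1.24 (SE 0.09, adjusted p = 1.02e-06) in WT control and −0.44 (SE 0.09, adjusted p = 0.00718) in KO control cells, the last lost in 3 of 20 settings. The subunits Etfa and Etfb moved less. Etfb differed by −0.32 in KO Poly(I:C), −0.31 in WT control and −0.40 in KO control cells and was called in each. The values as deposited gave −0.14 and no call in KO Poly(I:C) and WT control cells. On the same strand Gm45233 and Mir7051 overlap 58.2% of the Etfb exonic length, and Mir7051 was at 0 throughout. Gm45233 shares 43.8% of the 50-base words of Etfb, and its part in the Etfb values was not tested. Etfa passed only in KO control cells, where it fell by 0.24 and lost the call in 11 of 20 settings.

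The acyl-CoA thioesterases Acot1 of the cytosol and Acot2 of mitochondria fell most of the genes above 1 CPM in untreated cells in KO Poly(I:C) and in WT control cells. In KO control cells Acot1 fell most of these genes and Cpt1a (−1.55) lay between Acot1 and Acot2. Acot1 (ENSMUSG00000072949, chromosome 12, 84009490 to 84018371, plus strand) had 0.705 and 0.281 CPM in KO Poly(I:C), 2.74 and 2.10 in KO control, 0.446 and 0.237 in WT control, 8.36 and 9.46 in untreated KO and 9.53 and 6.73 in untreated WT libraries. Acot2 (ENSMUSG00000021226, chromosome 12, 83987861 to 83993873, plus strand) had 0.264 and 0.589 CPM in KO Poly(I:C), 2.87 and 2.59 in KO control, 0.474 and 0.355 in WT control, 7.25 and 6.58 in untreated KO and 8.18 and 7.06 in untreated WT libraries. In both genes the KO Poly(I:C) and WT control libraries were lowest and overlapped each other, KO control libraries were intermediate and untreated libraries highest. The differences of Acot1 were −4.02 (SE 0.36, adjusted p = 3.69e-06) in KO Poly(I:C), −4.24 (SE 0.36, adjusted p = 3.65e-06) in WT control and −1.85 (SE 0.36, adjusted p = 0.00656) in KO control cells. Those of Acot2 were −3.81 (SE 0.28, adjusted p = 8.61e-07), −3.91 (SE 0.28, adjusted p = 1.07e-06) and −1.31 (SE 0.28, adjusted p = 0.0101) in the same order of groups. Without KO control replicate 2, neither was called in KO control cells. The genes are neighbours on chromosome 12 and share 13.6% of the 50-base words of Acot1 and 24.5% of those of Acot2, so reads could be split between them. The log2 difference of their summed value was −3.97 in KO Poly(I:C), −4.23 in WT control and −1.61 in KO control cells.

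Their start windows are shown because this pair fell furthest of the genes above 1 CPM in KO Poly(I:C) and WT control cells, with the same motifs in capitals.
Acot1 (chr12:84009252-84009551, plus strand): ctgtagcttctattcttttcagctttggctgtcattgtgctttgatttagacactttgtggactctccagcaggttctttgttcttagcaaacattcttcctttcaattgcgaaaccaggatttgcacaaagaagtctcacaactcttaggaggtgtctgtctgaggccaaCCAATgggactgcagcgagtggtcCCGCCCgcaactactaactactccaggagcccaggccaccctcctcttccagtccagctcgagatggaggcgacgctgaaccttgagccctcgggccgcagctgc
Acot2 (chr12:83987611-83987910, plus strand): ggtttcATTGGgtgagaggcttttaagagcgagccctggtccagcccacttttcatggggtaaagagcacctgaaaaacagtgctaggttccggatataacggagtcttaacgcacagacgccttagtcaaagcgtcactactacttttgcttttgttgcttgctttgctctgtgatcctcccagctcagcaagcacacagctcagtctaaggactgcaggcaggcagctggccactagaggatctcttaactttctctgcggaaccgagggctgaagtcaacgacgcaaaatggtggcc
Each window held 1 CCAAT, on opposite strands, and Acot1 also 1 GGGCGG.

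Among the regulators, Pdk4, a kinase that shuts pyruvate dehydrogenase and spares glucose, was low in all libraries. Its deposited values were 0 and 0 in KO Poly(I:C), 1 and 4 in KO control, 0 and 1 in WT control, 13 and 26 in untreated KO and 22 and 25 in untreated WT libraries. It passed the filter only through the untreated groups. It was called lower in KO Poly(I:C) cells, where it was listed at 0, in WT control cells (−2.91) and in KO control cells (−2.01), sizes that depend on the added 0.1. The KO control call was lost without KO control replicate 1 or untreated KO replicate 2. Ppargc1b, which encodes the coactivator PGC-1 beta, had 2.58 and 2.08 CPM in KO Poly(I:C), 1.45 and 0.550 in KO control, 1.90 and 1.78 in WT control, 1.60 and 1.46 in untreated KO and 2.13 and 1.91 in untreated WT libraries. The 2 KO control libraries were far apart, and no difference from untreated cells passed. Ppara, the nuclear receptor known to control many of these genes in liver, was listed at 0 in all 10 libraries.

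**Figure D2:**
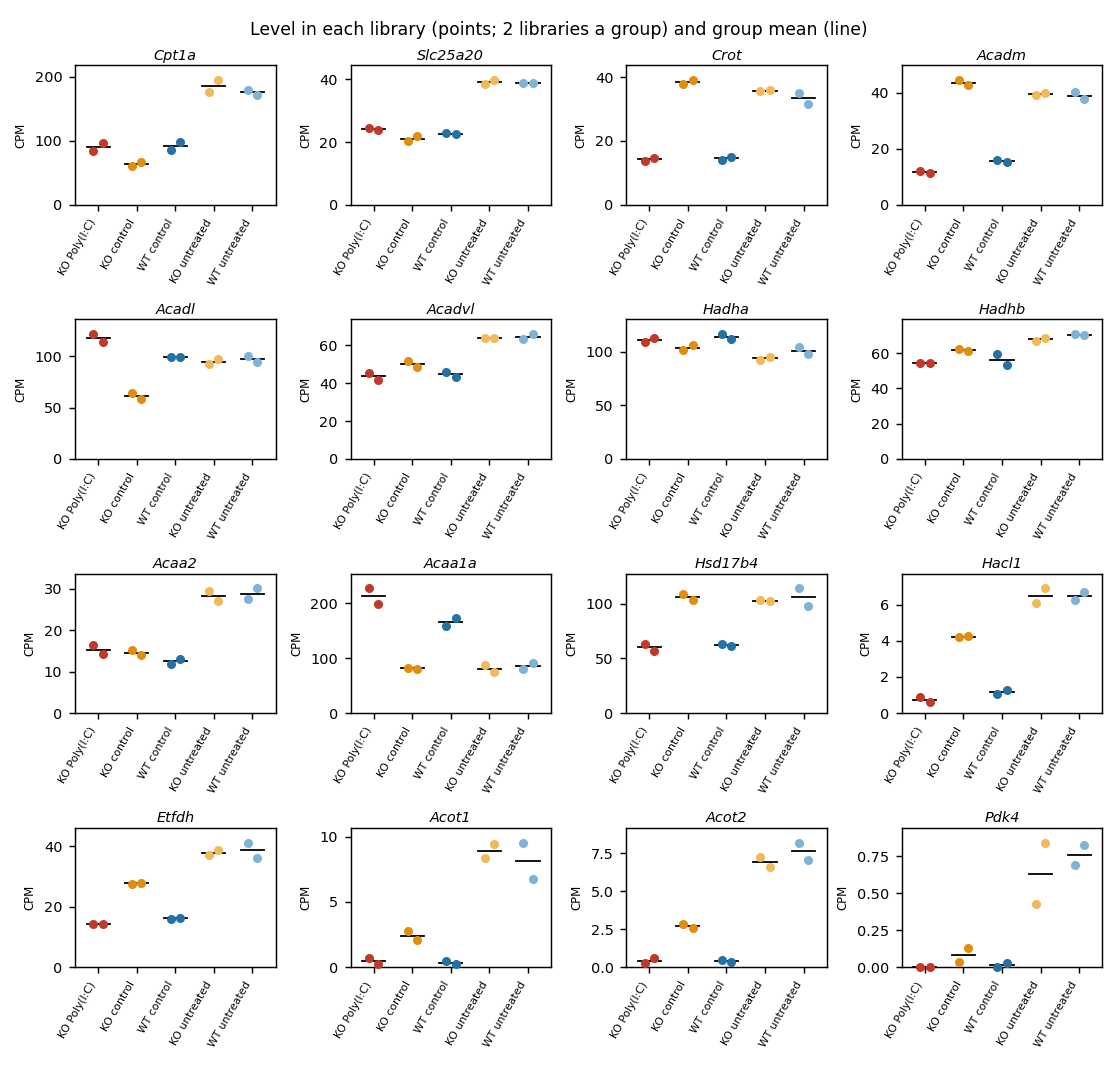
CPM of 16 genes in each library (points) with the group mean (line), 2 libraries in each of 5 groups, each axis from 0. Acadm, Crot and Hsd17b4 stand near their untreated levels in KO control cells, Cpt1a, Slc25a20 and Acaa2 do not, and Acaa1a is high only in the KO Poly(I:C) libraries (227 and 198 CPM) and the WT control libraries (159 and 173 CPM).

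Levels can be set side by side between genes only per length. In untreated WT cells the highest CPM per kb of exonic length were those of Etfb (51.6), Acadl (48.7), Etfa (31.7), Hsd17b4 (31.1), Acadvl (24.0) and Cpt1a (23.0). The lowest above 0 were Pdk4 (0.216), Ppargc1b (0.507) and Hacl1 (1.31). Among the dehydrogenases Acadl stood at 58.7 CPM per kb in KO Poly(I:C) against 2.96 for Acadm, and at 30.6 against 11.1 in KO control cells. Acot2 stood at 0.194 in KO Poly(I:C), 1.24 in KO control, 0.189 in WT control, 3.15 in untreated KO and 3.47 CPM per kb in untreated WT cells. The length is that of all annotated exons of a gene, which the transcripts present may not use in full, and 44.8% of the 50-base words of Etfb and 28.4% of those of Hacl1 are shared with other annotated genes.

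**Figure D3:**
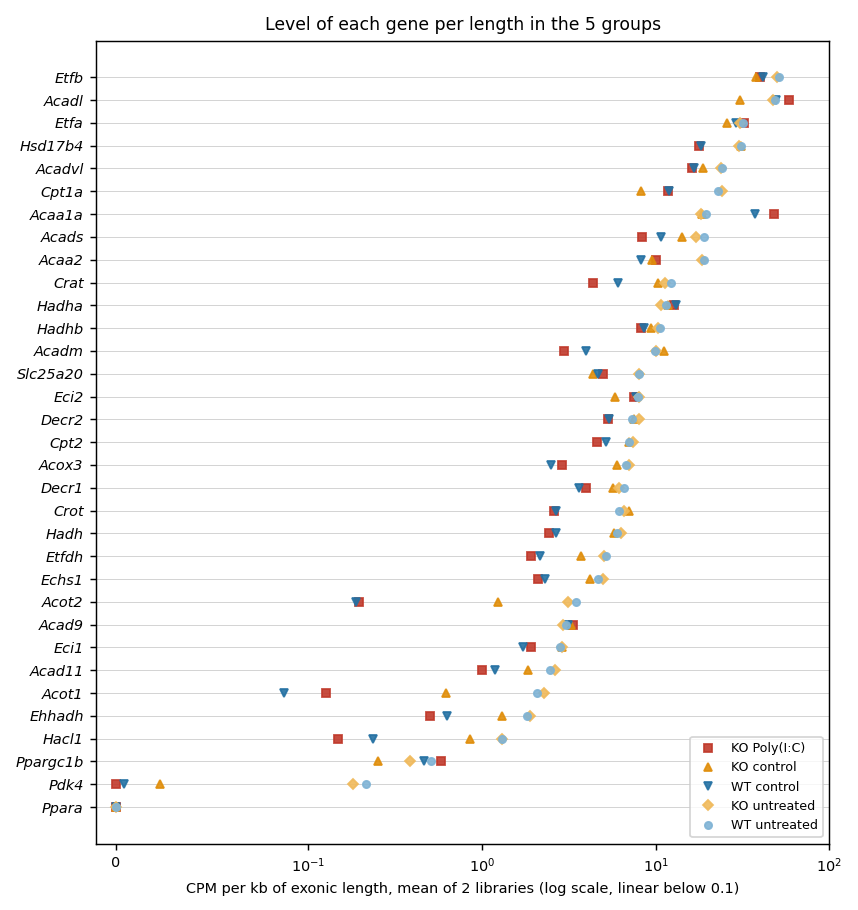
Mean CPM per kb of exonic length of the 33 genes (rows, ordered by untreated WT cells) in the 5 groups (symbols), on a log axis that is linear below 0.1. Acot1 and Acot2 spread furthest among the genes above 1 in untreated WT cells, with KO Poly(I:C) and WT control cells below 0.2 CPM per kb, while the group means of Acad9 lie between 2.91 and 3.32.

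Between untreated cells of the 2 genotypes none of the 32 genes passed the test. Of all tested genes 0.0835% were higher and 0.0835% lower in untreated KO cells than in untreated WT cells. No member passed in limma, and 0 had an unadjusted p under 0.05, against 1144 of all 13171 genes. The log2 differences of the members ran from −0.38 for Ppargc1b to 0.15 for Acot1, with a median of −0.02. Cpt1a averaged 186 ± 12.7 CPM in untreated KO and 176 ± 5.79 CPM in untreated WT cells, and Acadm 39.6 ± 0.455 and 38.9 ± 1.78 CPM (SD, n = 2 each).

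After the control medium the genotypes stood apart. KO control cells had higher levels than WT control cells of 18 of the 32 genes and lower levels of 5, where 31.2% of all genes were higher and 29.9% lower. Of the 6 peroxisomal genes 5 were higher and 1 lower, both thioesterases were higher, and of the 6 dehydrogenases 3 were higher and 1 lower. Acot1 was higher by 2.54 (SE 0.36, adjusted p = 0.000169), Acot2 by 2.47 (SE 0.28, adjusted p = 3.59e-05) and Hacl1 by 1.78 (SE 0.20, adjusted p = 3.19e-05). Acadm, at 43.6 ± 1.18 CPM in KO control and 15.6 ± 0.668 CPM in WT control cells (SD, n = 2 each), was higher by 1.47 (SE 0.08, adjusted p = 2.25e-07), and Crot by 1.39 (SE 0.09, adjusted p = 5.46e-07). These 5 were picked as the largest called differences among members whose KO control and WT control libraries did not overlap. Their lack of overlap was thus a condition of the choice.

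The 5 genes lower in KO control than in WT control cells were Cpt1a, Acadl, Eci2, Acaa1a and Ppargc1b. Cpt1a averaged 63.4 ± 3.88 CPM in KO control and 91.4 ± 8.33 CPM in WT control cells (SD, n = 2 each), a difference of −0.53 (SE 0.10, adjusted p = 0.000971), which was −0.05 and not called with library totals alone. Acadl differed by −0.70 (SE 0.08, adjusted p = 2.85e-05), Acaa1a by −1.02 (SE 0.10, adjusted p = 1.59e-05), and Eci2 by −0.39 (SE 0.08, adjusted p = 0.00151), which became 0.09 with library totals alone. The Ppargc1b difference was −0.95, −0.32 without KO control replicate 2 and −1.57 without KO control replicate 1, and its call was lost in 6 of 20 settings. Slc25a20, Acadvl, Acad9, Hadha, Hadhb, Acaa2, Etfa, Etfb and Pdk4 did not pass. Library totals alone moved the median of all genes to 0.50 and the members' split to 26 higher and 2 lower, and the values as deposited to −0.14 and a split of 16 higher and 9 lower. Of all genes, 7672 were higher and 2077 lower with library totals alone, and 2965 higher and 4934 lower with the values as deposited.

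The interaction tests whether the response to the control medium, as a difference from untreated cells, was the same in KO and WT cells. It was called for 20 of the 32 genes, with the KO response above the WT response in 16 and below it in 4, where 22.3% of all genes were called higher and 23.6% lower. Of the 16, 11 fell in WT cells and did not pass in KO cells: Crat, Crot, Acadm, Acads, Hadh, Echs1, Eci1, Decr1, Acox3, Hsd17b4 and Hacl1. Of these, Hacl1 was called lower in KO control cells in 7 of 20 settings (adjusted p from 0.0168 to 0.260 over them all) and Acox3 in 1. The other 5 (Acad11, Ehhadh, Etfdh, Acot1 and Acot2) fell in both, and less in KO cells. The interaction was 2.60 (SE 0.40, adjusted p = 0.000507) for Acot2, 1.78 (SE 0.28, adjusted p = 0.000642) for Hacl1, 1.45 (SE 0.12, adjusted p = 7.65e-06) for Acadm and 1.29 (SE 0.13, adjusted p = 2.59e-05) for Crot. The calls of Acads and Acad11 (0.55 and 0.53) were lost in 9 and 7 of 20 settings. Library totals alone moved the median of all genes to 0.52 and the split to 26 higher and 1 lower, and the values as deposited to −0.12 and 13 higher and 4 lower. Of all genes, 6518 were higher and 1695 lower with library totals alone, and 2060 higher and 3819 lower with the values as deposited. Of 9 neutrophil markers 6 had a called interaction below 0, as did 4 of 10 macrophage markers and 2 of 5 stromal markers, and Cd79b had one above 0. In KO control cells against untreated KO cells 3 of 9 neutrophil markers fell and 0 rose, and of 10 macrophage markers 3 fell and 2 rose. Their part in the result was not tested.

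In 4 genes the KO response lay below the WT response. Cpt1a fell in both and further in KO cells (interaction −0.60, SE 0.14, adjusted p = 0.00525), but by an interaction of −0.12 that was not called with library totals alone. Acadl and Eci2 fell in KO cells and did not pass in WT cells. Their interactions were −0.66 (SE 0.11, adjusted p = 0.000833) and −0.39 (SE 0.11, adjusted p = 0.0145), and with library totals alone they were −0.17 and 0.10 and not called. Acaa1a rose in WT cells and stood at 81.7 ± 1.14 CPM in KO control against 80.6 ± 9.26 CPM in untreated KO cells, with an interaction of −0.93 (SE 0.15, adjusted p = 0.000628). Slc25a20, Acadvl, Acaa2, Etfb and Pdk4 fell in both genotypes with interactions of −0.12, 0.19, 0.25, −0.09 and 0.90 that did not pass.

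**Figure D4:**
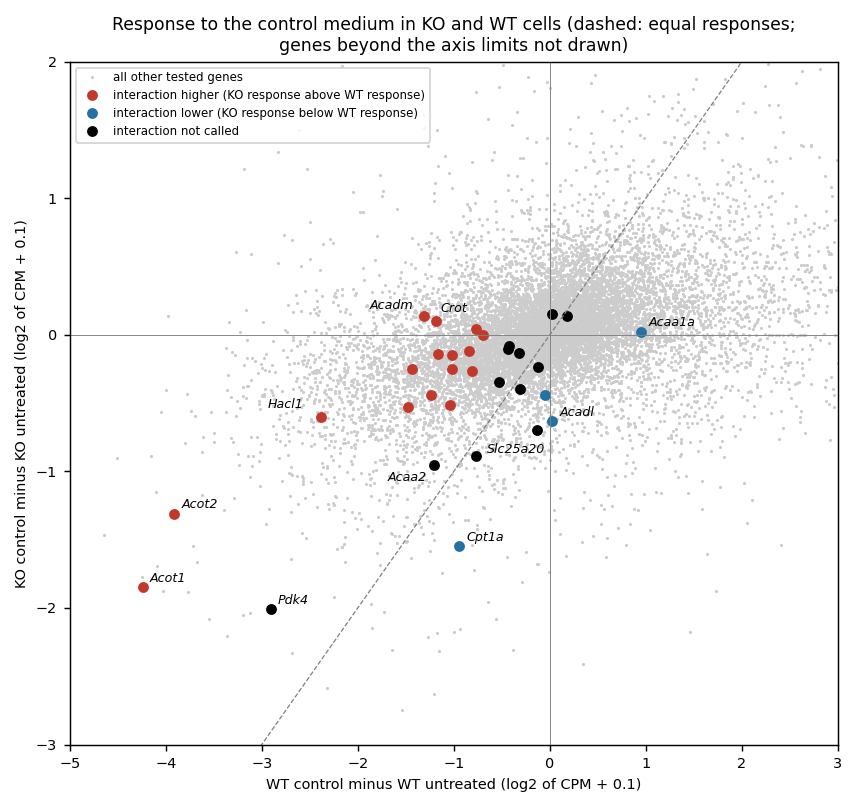
Response to the control medium in KO cells (vertical) against that in WT cells (horizontal), as log2 differences of CPM + 0.1 from untreated cells, for the 32 genes (large points, coloured by the interaction call) and all other tested genes (grey). Most members lie left of 0 and above the dashed line of equal responses. Cpt1a (−1.55 in KO and −0.95 in WT cells) lies below the line, and Acot1 and Acot2 lie furthest left.

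In KO cells, Poly(I:C) was set against the control medium, which may differ in more than Poly(I:C). Of the 32 genes 20 were lower and 7 higher in KO Poly(I:C) than in KO control cells, where 36.3% of all genes were lower and 33.1% higher. This comparison shares the KO control libraries with the response to the control medium and the comparison with WT control cells. The lower genes were led by Acot2 (−2.50, SE 0.28, adjusted p = 2.27e-05), Hacl1 (−2.397, SE 0.20, adjusted p = 2.46e-06), Acot1 (−2.18, SE 0.36, adjusted p = 0.000369), Acadm (−1.90, SE 0.08, adjusted p = 2.39e-08) and Crot (−1.43, SE 0.09, adjusted p = 2.95e-07). These 5 were picked among called members whose libraries did not overlap between the groups, so the lack of overlap was a condition of the choice. Acadm averaged 11.6 ± 0.416 CPM in KO Poly(I:C) and 43.6 ± 1.18 CPM in KO control cells (SD, n = 2 each).

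The higher genes were Acaa1a, Acadl, Cpt1a, Eci2, Etfa, Slc25a20 and Ppargc1b. Acaa1a was higher by 1.38 (SE 0.10, adjusted p = 1.20e-06) and Acadl by 0.94 (SE 0.08, adjusted p = 2.22e-06). Cpt1a averaged 89.5 ± 9.05 CPM in KO Poly(I:C) and 63.4 ± 3.88 CPM in KO control cells and was higher by 0.50 (SE 0.10, adjusted p = 0.00111), but this difference was −0.24 with library totals alone. Eci2 (0.36), Etfa (0.31) and Slc25a20 (0.19) also turned negative with library totals alone (−0.37, −0.42 and −0.54), and the Slc25a20 call was lost in 14 of 20 settings. Ppargc1b was higher by 1.27 (SE 0.34, adjusted p = 0.00727), but by 0.58 and not called with library totals alone. Its difference was 0.64 without KO control replicate 2 and 1.89 without KO control replicate 1, and its call was lost without KO Poly(I:C) replicate 1 (adjusted p = 0.0501). The calls of Hadhb (−0.18) and Acadvl (−0.20) as lower were lost in 10 and 7 of 20 settings. Library totals alone moved the median of all genes to −0.76 and the members' split to 2 higher and 28 lower, and the values as deposited to 0.13 and a split of 10 higher and 18 lower. Of all genes, 2081 were higher and 8882 lower with library totals alone, and 5204 higher and 3759 lower with the values as deposited. Of the neutrophil markers 7 of 9 were higher in KO Poly(I:C) than in KO control cells, and 7 of 9 were lower in KO control than in WT control cells.

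Ratios within a library do not depend on how it was scaled. With 2 libraries a group, an exact permutation test of a ratio could not reach a p under 0.05, so the ratios are given without a test. Acadl over Acadm was 10.2 and 10.1 in KO Poly(I:C), 1.45 and 1.36 in KO control, 6.19 and 6.55 in WT control, 2.35 and 2.44 in untreated KO and 2.50 and 2.52 in untreated WT libraries. It was highest in KO Poly(I:C), next in WT control and lowest in KO control libraries, with no overlap among the pre-treated groups. Acaa1a over Hsd17b4, 2 peroxisomal enzymes, was 3.58 and 3.48 in KO Poly(I:C), 0.760 and 0.786 in KO control, 2.54 and 2.82 in WT control, 0.847 and 0.721 in untreated KO and 0.705 and 0.933 in untreated WT libraries, so that KO control and untreated libraries overlapped below the others. Cpt1a over Cpt2, the enzymes at either end of the shuttle, was 7.78 and 8.53 in KO Poly(I:C), 3.90 and 3.69 in KO control, 6.58 and 8.25 in WT control, 9.92 and 11.1 in untreated KO and 10.02 and 11.05 in untreated WT libraries. It was lowest in KO control libraries, at less than the ratio in any other library. Acot1 over Acot2, both low in pre-treated cells, was 2.67 and 0.476 in the KO Poly(I:C) libraries, a range that held the ratios of all other libraries.

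**Figure D5:**
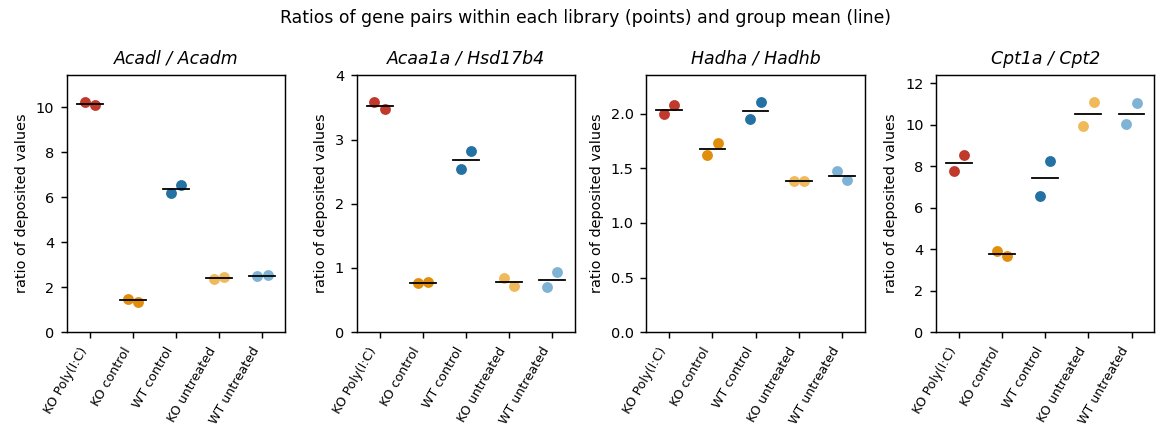
Ratios of the deposited values of 4 gene pairs in each library (points) with the group mean (line), 2 libraries in each of 5 groups, each axis from 0. Acadl over Acadm averaged 10.1 in KO Poly(I:C), 1.40 in KO control and 6.37 in WT control, against 2.397 in untreated KO and 2.51 in untreated WT cells.

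Other genes of the pathway were taken from lists beside the 33. Against their counts stand the shares of all tested genes, of which 36.9% fell and 35% rose in KO Poly(I:C), 33.1% fell and 32.8% rose in WT control and 9.06% fell and 10.9% rose in KO control cells, each against untreated cells. Of 18 other oxidation enzymes tested, 13 fell and 1 rose in KO Poly(I:C), 13 fell and 2 rose in WT control and 1 fell and 2 rose in KO control cells, against untreated cells. Acsl1, which activates long-chain fatty acids to CoA esters, rose by 3.48 in KO Poly(I:C) and by 3.003 in WT control cells. Acad10 was the only gene of these lists called between untreated genotypes, higher by 2.399 in KO cells. Of 18 other peroxisomal lipid genes tested, 13 fell and 3 rose in KO Poly(I:C), 13 fell and 1 rose in WT control and 4 fell and 1 rose in KO control cells, with Abcd2, a transporter of very long chains into peroxisomes, at −4.07, −3.71 and −1.55.

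Of 8 other thioesterases tested, 4 fell and 2 rose in KO Poly(I:C), 2 fell and 3 rose in WT control and 1 fell and 2 rose in KO control cells. Acot6, a neighbour of the Acot1 family, fell by 2.75 in KO Poly(I:C) and by 2.22 in WT control cells, and the mitochondrial Acot9 rose by 1.72 and 1.39. The WT control counts of this list are near the shares of all genes. Of 12 tested PPAR targets outside oxidation, 7 fell and 3 rose in KO Poly(I:C) and in WT control cells, and 9 fell and 1 rose in KO control cells. In KO control cells they were led by Angptl4, an inhibitor of lipoprotein lipase (−3.92), and Plin2, a lipid droplet coat (−2.16). Of 19 regulators tested, 11 fell and 5 rose in KO Poly(I:C), 10 fell and 5 rose in WT control and 3 fell and 1 rose in KO control cells, led by Lpin1, a coactivator and phosphatidate phosphatase, at −5.51, −3.80 and −0.79. Of 6 other kinases, phosphatases and partners of pyruvate dehydrogenase, 2 fell and 1 rose in KO Poly(I:C), 3 fell and 1 rose in WT control and 0 passed in KO control cells in limma. Pdk2 fell by 3.11 and 1.92 in KO Poly(I:C) and WT control cells, and Pdk3 rose by 1.98 and 1.504.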

How the data were processed

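Per the labels, mouse BMDM RNA was sequenced from stranded mRNA libraries. RSEM 1.2.12, STAR 2.4.0d, DESeq2 and Trim Galore 0.2.8 appear, without roles, in the submitters' processing notes. The sources used here do not give genome build, read length or strand setting. The authors deposited whole numbers per gene that behave as a signal, rescaled per library and rounded, so no count model was used, and an rlog table on a log2 scale. The planned test for this unit was kept. Of 45318 identifiers, 44585 matched a symbol in GENCODE M21 (GRCm38), whose coordinates are printed. Values were divided by library total times a trimmed mean of M values (TMM) factor (30% of M and 5% of A trimmed). Genes with at least 10 units in at least 2 libraries were kept (13171). limma 3.58.1 in R 4.3.3 was fitted with a trend on log2(CPM + 0.1), 1 coefficient per group over all 10 libraries (5 residual and 4.81 prior degrees of freedom). This scale understates the change of low genes. The fit was also run on simulated counts in which few genes changed, in 1 group. These data are rescaled values with many genes called, so that run does not give the error rates here. Depth in reads is unknown from a rescaled table. The members and all gene lists were chosen with earlier results of these data known. Named genes were 16 members fixed by role and, per comparison, the 5 largest called members whose groups did not overlap. Alternatives covered scaling, pseudocount (0.5 and 1), filter, table, the samples fitted, the replicate block and leaving out each library.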

Additional observations from a re-analysis of the deposited data

Results flagged for a closer look

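For 20 genes the response to the control medium differed between KO and WT cells by the interaction test, given here as the KO response minus the WT response on the log2 scale (limma, adjusted p under 0.05 over all 13171 genes, at which 22.3% of all genes were called higher and 23.6% lower). The KO response was the higher one for Acot2 (2.60), Acot1 (2.39), Hacl1 (1.78), Acadm (1.45), Crot (1.29), Acox3 (1.19), Hadh (1.03), Ehhadh (0.95), Crat (0.87), Hsd17b4 (0.81), Etfdh (0.80), Echs1 (0.76), Decr1 (0.72), Eci1 (0.70), Acads (0.55) and Acad11 (0.53). It was the lower one for Acaa1a (−0.93), Acadl (−0.66), Cpt1a (−0.60) and Eci2 (−0.39).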

How the results depend on the processing

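Of 139 calls among 224 tests of members, 104 were kept under every alternative in which the gene was tested, and 35 were lost in at least 1. The count of members called moved by over 1.5 times only for KO control against untreated KO cells, where it was 14 and ranged from 6 to 14 when single libraries were left out (6 without KO control replicate 2, 8 without untreated KO replicate 1 or 2). The ranges were 26 to 29 for KO Poly(I:C) against untreated KO, 24 to 26 for KO Poly(I:C) against KO control, 24 to 27 for WT control against untreated WT, 20 to 23 for KO control against WT control, 17 to 20 for the interaction, and 0 to 0 between untreated genotypes. Without KO control replicate 2 or either untreated KO replicate, fewer of all genes were also called in KO control against untreated KO cells. Leaving out a library leaves a group of 1, whose spread is assumed to be that of the other groups.

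With library totals alone, 25 differences that were called here or there changed sign. In WT control against untreated WT cells these were Acadl (−0.50), Acad9 (−0.50) and Hadha (−0.35), and in KO Poly(I:C) against untreated KO cells Acadl (−0.46), Acad9 (−0.58), Hadha (−0.53) and Etfa (−0.69). In KO control against WT control cells they were Slc25a20 (0.37), Hadha (0.34), Eci2 (0.0923), Etfa (0.31) and Etfb (0.34). In KO Poly(I:C) against KO control cells they were Cpt1a (−0.24), Slc25a20 (−0.54), Acad9 (−0.69), Hadha (−0.64), Acaa2 (−0.65), Eci2 (−0.37), Etfa (−0.42) and Etfb (−0.66), and in the interaction Slc25a20 (0.37), Hadha (0.45), Eci2 (0.10), Etfa (0.37) and Etfb (0.40). With this scaling the median of all genes lay at −0.52, −0.77, 0.50, −0.76 and 0.52 in these comparisons, in the order given. With the values as deposited, Hadhb in KO Poly(I:C) against KO control cells was 0.0017.

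The groups share replicate numbers, and the correlation of same-numbered deviations ran from 0.172 to 0.315 between groups of 1 genotype and from 0.0126 to 0.110 between genotypes. The labels do not say what a number marks and each group holds only 2, so whether the numbers pair the samples was not settled. With the replicate block the counts of called members were 28, 27, 15, 27, 24, 21 and 0 for KO Poly(I:C) against untreated KO, KO Poly(I:C) against KO control, KO control against untreated KO, WT control against untreated WT, KO control against WT control, the interaction and untreated KO against untreated WT. The fit of recovered reads with edgeR was not run, because the deposited values are rescaled and rounded. The filter on a mean of at least 1 CPM left out Pdk4. With 2 libraries a group, small differences of low genes such as Pdk4 and Ppargc1b are not resolved.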
